A study of Homo sapiens with 9 samples.

Results

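Interferon-stimulated genes (ISGs), transcribed when a cell responds to interferon, were followed through TC71 Ewing sarcoma cells growing in 3 places in the mouse. The 35 ISGs were taken by gene symbol from a given list, out of 34830 gene rows. Each of the 35 symbols had a row in the count table. Of 17042 genes with enough counts to be tested, 30 were ISGs of this list, and the 5 untested members were IRF7, MX1, MX2, BST2 and GBP2.

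TC71 is a human Ewing sarcoma cell line. All groups came from the same injection: 100 cells in Matrigel under the skin of the flank of NSG mice, which lack mature T, B and natural killer cells. Tumor cells were recovered by flow cytometry once tumors measured 1.5 cm. The groups were bone marrow metastases (4 libraries), lung metastases (4 libraries) and the primary tumor (1 library), with no drug treatment or engineered allele named in the labels. Which libraries share a mouse is not in the labels, so the p-values reflect only the spread between these samples, and the primary tumor has no replicate check. In bulk libraries, fewer cells of a type and less RNA per cell cannot be told apart.

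Type I interferons bind the receptor pair IFNAR1 and IFNAR2 and, through the kinases JAK1 and TYK2, activate a complex that contains STAT2 and IRF9. This complex binds the interferon-stimulated response element (ISRE) in the promoters of ISGs, while interferon gamma acts through gamma-activated sites (GAS). The proteins made sense viral nucleic acids, block translation and viral entry, or attach the ubiquitin-like protein ISG15 to other proteins, and many ISGs also have a basal level in cells not exposed to interferon.

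Promoter windows of the members were searched for fixed letter patterns of these elements. RefSeq windows of 250 bases before and 50 bases after a transcript start (build GRCh38.p14) were at hand for 27 of the 35 members. IRF7, OAS2, OASL, IFIT2, MX2, TRIM22, GBP2 and USP18 are named only. An ISRE match was a pair of GAAA blocks separated by 2 bases of any kind, or of TTTC blocks when it lay on the other strand. It was found for 19 of the 27 members (70.4%), against 1195 of 27305 genes (4.38%). The palindromic GAS motif TTCNNNGAA was found for 7 members (25.9%), against 2560 genes (9.38%), and a match of 1 motif may overlap a match of the other. A match is a run of letters and was not tested as a binding site. Other spacings were not counted, so a member without a match may still carry the element. The OAS1 window, with no ISRE match, holds 2 GAAA blocks separated by 1 base. The 5 windows below are shown because they stand for the patterns in the data: ISG15 is the member whose level separated the sites, IFI6 and IFIT1 were detected in all libraries, IRF1 was lowest in the primary tumor, and CXCL10 had counts in few libraries. Each is printed 5′ to 3′ on the strand of the gene, in capitals where a motif matched, and ends before the first base of any exon annotated in GENCODE release 29.
ISG15: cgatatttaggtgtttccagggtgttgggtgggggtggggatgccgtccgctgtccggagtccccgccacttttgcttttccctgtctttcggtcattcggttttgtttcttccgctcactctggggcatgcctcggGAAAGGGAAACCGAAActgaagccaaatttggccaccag
IFI6: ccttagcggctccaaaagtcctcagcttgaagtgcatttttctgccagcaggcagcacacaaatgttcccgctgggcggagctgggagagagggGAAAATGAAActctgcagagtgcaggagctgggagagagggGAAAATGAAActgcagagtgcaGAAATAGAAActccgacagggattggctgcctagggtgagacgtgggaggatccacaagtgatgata
IFIT1: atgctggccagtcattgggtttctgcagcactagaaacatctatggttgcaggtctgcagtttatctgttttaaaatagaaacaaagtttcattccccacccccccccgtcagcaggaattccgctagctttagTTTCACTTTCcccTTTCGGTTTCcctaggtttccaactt
IRF1: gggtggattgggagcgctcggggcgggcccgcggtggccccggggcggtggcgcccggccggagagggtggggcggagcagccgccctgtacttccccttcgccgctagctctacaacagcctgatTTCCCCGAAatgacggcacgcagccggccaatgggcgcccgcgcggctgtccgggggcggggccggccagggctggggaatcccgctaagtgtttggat
CXCL10: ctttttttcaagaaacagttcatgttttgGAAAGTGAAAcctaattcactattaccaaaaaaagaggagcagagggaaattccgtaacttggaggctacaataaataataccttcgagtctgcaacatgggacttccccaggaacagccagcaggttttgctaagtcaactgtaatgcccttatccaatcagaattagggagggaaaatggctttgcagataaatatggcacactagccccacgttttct

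The ISG15 window (chr1:1013247-1013422, plus strand) held 2 ISRE matches that share a GAAA block. The IFI6 window (chr1:27672219-27672442, minus strand) held 3 ISRE matches. In the IFIT1 window (chr10:89392373-89392545, plus strand) 2 matches lay on the opposite strand. The IRF1 window (chr5:132490799-132491023, minus strand) held 1 GAS match and no ISRE match. The CXCL10 window (chr4:76023498-76023747, minus strand) held 1 ISRE match.

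**Figure D1:**
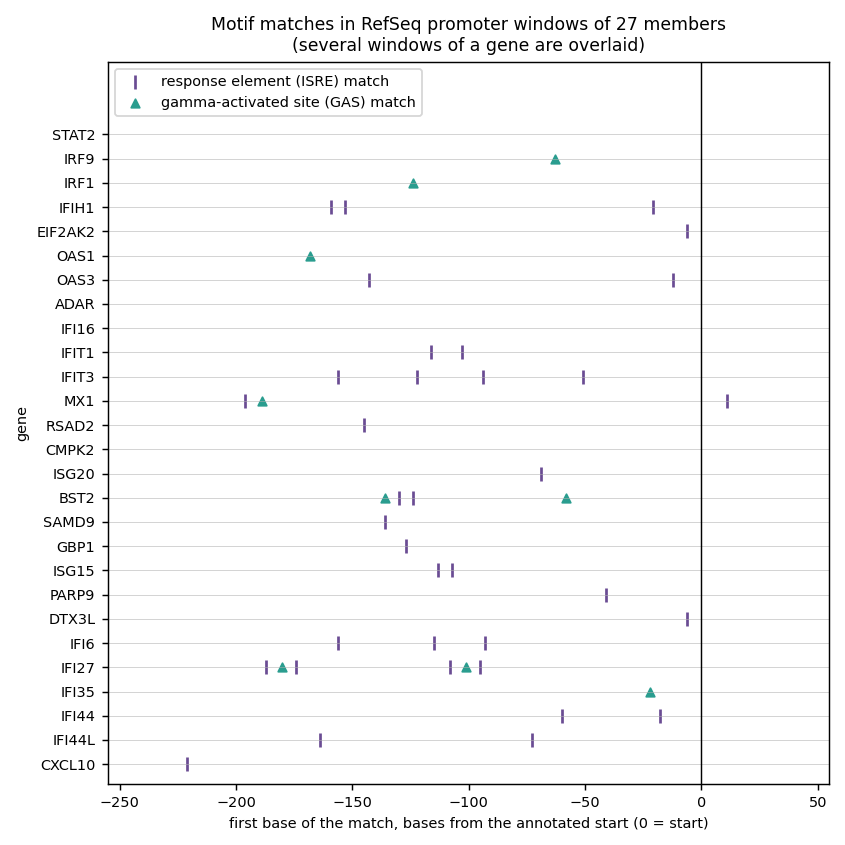
First base of each ISRE match (bars) and GAS match (triangles), in bases from the annotated transcript start, for the 27 members with a RefSeq window. The 2 ISG15 matches begin at -113 and -107, and the IRF1 GAS match begins at -124.

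Libraries held 11549404 to 17910246 estimated counts (bone marrow at least 14157878, lung at most 13218346, primary tumor 12352148), and 3 counts, taken as the floor of detection, equalled 0.183 to 0.255 counts per 1000000 (CPM, TMM-scaled throughout). Floors cover counting error only. The Ewing sarcoma markers STEAP1 and CD99 were present at 574 to 1052 and 299 to 779 CPM over the metastasis libraries, whereas FLI1, whose 3′ part the EWSR1-FLI1 fusion carries, did not exceed 0.781 CPM in any library. Of 12 leukocyte markers, CSF1R was listed at 0 in all 9 libraries and CD14 reached 0.370 CPM, and the 12 together came to 3.07 to 12.1 CPM in bone marrow, 2.46 to 42.0 in lung and 7.01 in the primary tumor. DESeq2, but not edgeR, called 1 marker of each kind between the sites, EWSR1 higher in bone marrow (adjusted p 0.0241) and the macrophage marker CD68 higher in lung (adjusted p 0.00345), and the Ewing sarcoma marker NPY1R higher in the metastases than in the primary tumor (adjusted p 0.000368). The deposited percent of reads assigned to mouse was 7.0 to 8.09 in each library. The percents for human, mouse and unaligned reads add up to more than 100, so they are not exclusive shares. The coefficient of biological variation was 0.925, a wide spread between libraries of a group.

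The ISGs were present at low to moderate levels. Of the 35, 18 had at least 3 counts in all 9 libraries, 15 in 1 to 8 libraries, and 2 (MX2 and GBP2) in none. Mean levels reached 10 CPM for 11 of the 30 tested members and stayed below it for 19. Per kilobase of median transcript length, ISG15 led with a mean of 206 CPM per kb (101 to 444 over the 9 libraries). EIF2AK2 followed at 45.6 CPM per kb (5.88 to 107), then IRF1 at 31.4 (6.90 to 65.7), IFI35 at 27.4 (0 to 56.3), IFI6 at 24.9 (12.0 to 39.7) and USP18 at 16.7 (5.76 to 27.02). The ranges of each neighboring pair in this order overlapped, that of ISG15 and EIF2AK2 only at its edge. The median length runs over all annotated transcripts of a gene, from 0.56 kb for IFI35 to 6.005 kb for ADAR among others. The order therefore depends on the annotation as well as on the counts. At the bottom lay MX1 (0.455 CPM per kb), SAMD9 (0.283), OAS2 (0.266), CXCL10 (0.258), BST2 (0.184), STAT2 (0.150), MX2 (0.0240), IRF7 (0.0198) and GBP2 (0).

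**Figure D2:**
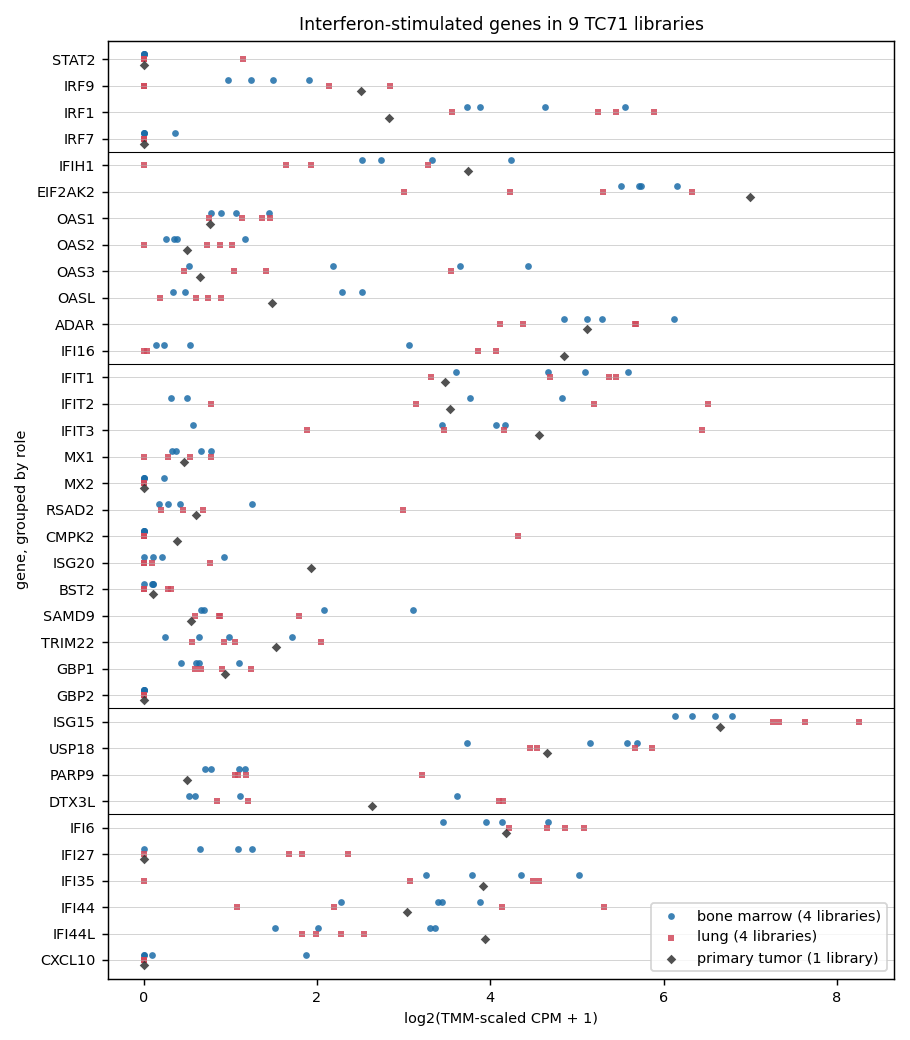
Level of each of the 35 members in each library, as log2(TMM-scaled CPM + 1), grouped by role, with circles for bone marrow, squares for lung and diamonds for the primary tumor. ISG15 is the member whose 4 lung libraries lie to the right of its 4 bone marrow libraries, and GBP2 sits at 0 throughout.

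Bone marrow was compared with lung to ask whether tumor cells of the 2 metastatic sites differed in these genes. ISG15 was lower in bone marrow than in lung by the DESeq2 test, and no member passed edgeR's quasi-likelihood test, the main test. Between the sites, 10 of the 30 tested members had a higher fitted level in bone marrow and 20 in lung, with a median log2 fold change (bone marrow minus lung) of -0.43. STAT2, CMPK2 and CXCL10 are among them but passed the filter on low counts through 1 library each, which fixed their directions. With the site at 0 set to the floor of 3 counts for these members, the median was again -0.43. For all 17042 tested genes, 8511 were higher in bone marrow and 8504 in lung, with a median of 0. With single libraries left out the median of the members ran from -0.79 (without bone marrow library 1) to -0.086 (without lung library 4).

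By edgeR, 0 of 30 members were called at a Benjamini-Hochberg adjusted p below 0.05, where 1 of all tested genes was (0.00587%). At an unadjusted edgeR p below 0.05 there were 2 members, ISG15 and CMPK2, against 1739 genes or 10.2% of those tested. CMPK2 passed the filter on low counts through lung library 4 alone. DESeq2 called 1 of the 24 members to which it gave an adjusted p, against 468 of 13847 genes (3.38%), and limma voom called 0 members, against 0.0352% of all genes. No member had all 4 bone marrow libraries above all 4 lung libraries (2.83% of all tested genes), and 1 had all lung above all bone marrow libraries (3.05% of all tested genes). These shares are close to the background.

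The ubiquitin-like and ADP-ribosylation group held ISG15, its protease USP18, and the partner proteins PARP9 and DTX3L, a mono-ADP-ribosyltransferase and a ubiquitin ligase. All 4 had a lower fitted level in bone marrow, USP18 not with limma voom. ISG15 (chr1:1001138-1014540, hg38, plus strand), a ubiquitin-like modifier, was at 79.3, 69.1, 110 and 95.4 CPM in bone marrow libraries 1 to 4, at 152, 304, 160 and 197 CPM in lung libraries 1 to 4, and at 99.3 CPM in the primary tumor. The 4 lung libraries lay above all other libraries, and the primary tumor lay within the bone marrow range.

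ISG15 averaged 203 ± 69.8 CPM in lung, against 88.4 ± 17.9 CPM in bone marrow (SD over 4 libraries). The log2 fold change was -1.20 ± 0.29 (SE). The edgeR p was 0.00237 and its adjusted p 0.329, the DESeq2 adjusted p was 0.0116 and the limma voom adjusted p 0.203. With single libraries left out, the DESeq2 adjusted p ran from 0.00818 to 0.0696, and the call was lost without bone marrow library 2. Lung libraries also had fewer counts, more mitochondrial ribosomal RNA (0.359 to 0.491% of reads, against 0.0956 to 0.218% in bone marrow) and more unaligned reads (20.4 to 24.7%, against 18.9 to 20.3%), without overlap, and their part in the ISG15 difference was not tested. The summed leukocyte markers were at 42.0, 14.96, 2.86 and 2.46 CPM in lung libraries 1 to 4, against 3.07 to 12.1 CPM in bone marrow. CD68 was at 20.9, 7.78, 0.956 and 2.25 CPM in lung libraries 1 to 4 and at most 0.448 CPM in bone marrow, and LYZ, also of that list, was at most 0.559 CPM in lung and at 0.587 to 1.53 CPM in bone marrow. Summed lung epithelial markers were at 14.8 to 128 CPM in lung and 21.3 to 87.5 CPM in bone marrow. Summed red cell markers were at 3.64 to 161 CPM in lung and 16.6 to 99.9 CPM in bone marrow. Each of these 2 sums was highest in lung library 2. The counts are of human genes in a mouse host, and whether these reads came from tumor cells or host cells was not tested. The part of these markers in the ISG15 difference was not tested either. GENCODE places an antisense gene on the opposite strand within the span of ISG15. Whether exons of the genes overlap was not determined. No source used here gives the strand setting of the counting, so reads from any shared sequence cannot be told apart.

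USP18 (chr22:18149899-18177397), which removes ISG15 from proteins and dampens receptor signaling, was at 12.3, 34.4, 46.8 and 50.9 CPM in bone marrow, then 50.1, 22.2, 20.9 and 57.5 CPM in lung, with 24.1 CPM in the primary tumor. The sites overlapped almost fully, with a log2 fold change of -0.06 ± 0.54 (edgeR adjusted p 0.983). USP41, a near copy that could share its reads, did not exceed 0.979 CPM. DTX3L was at 11.3, 0.440, 0.512 and 1.15 CPM in bone marrow, then 1.30, 16.2, 0.800 and 16.8 CPM in lung, with 5.19 CPM in the primary tumor. It was high in 1 bone marrow and 2 lung libraries and near 1 CPM in the other metastases. PARP9 was at 8.25 CPM in lung library 1 and at 0.629 to 1.27 CPM in the other 7 metastasis libraries. PARP9 and DTX3L overlap head to head on opposite strands, yet the libraries in which each was highest differed.

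**Figure D3:**
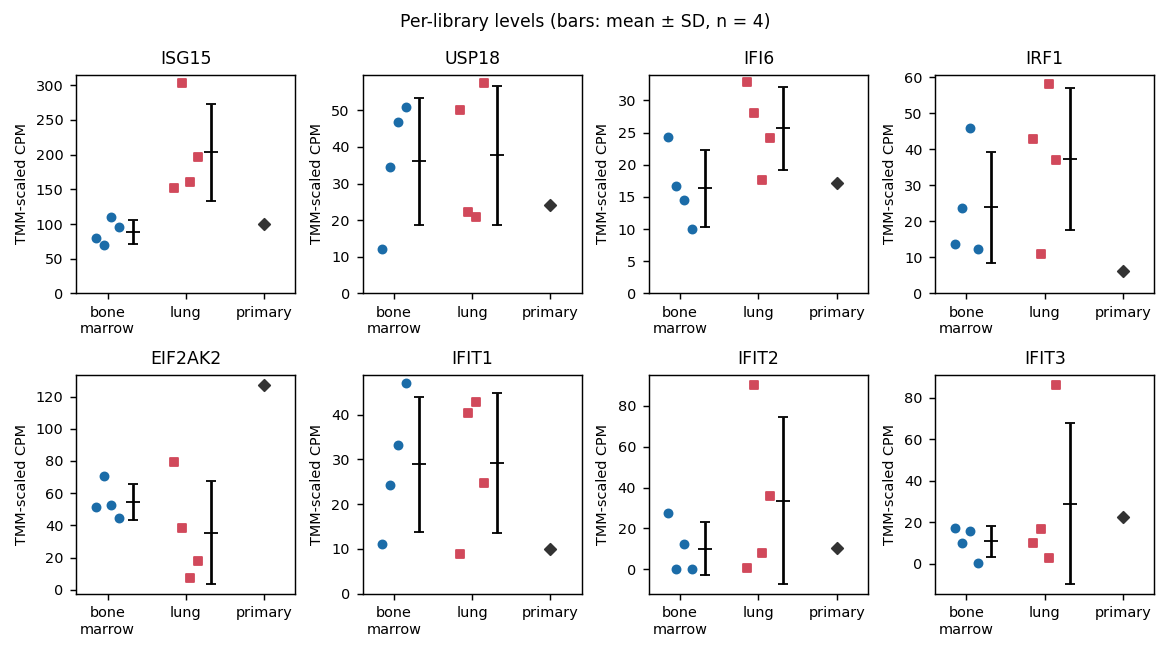
TMM-scaled CPM of 8 members in each library (circles bone marrow, squares lung, diamond primary tumor), with the mean and SD of the 4 libraries of a site beside the points. The 4 lung libraries of ISG15, at 152 to 304, lie above its bone marrow libraries, at 69.1 to 110, while the sites overlap in the other 7 panels.

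The transcription factors were IRF1, a GAS-driven activator, IRF9 and STAT2, DNA-binding and activating subunits of the ISRE-binding complex, and IRF7, which amplifies type I interferon synthesis. None of the 3 tested was called. IRF1 (chr5:132481609-132490798, minus strand) was at 13.7, 23.7, 45.8 and 12.2 CPM in bone marrow, then 42.8, 10.8, 58.1 and 37.0 CPM in lung, against 6.10 CPM in the primary tumor. Both sites spanned a wide range, and the log2 fold change of -0.64 ± 0.61 between them was about its standard error (edgeR adjusted p 0.750). IRF9 was at 2.76, 1.37, 1.80 and 0.971 CPM in bone marrow, then 6.19, 0, 0 and 3.40 CPM in lung, with 4.70 CPM in the primary tumor. It was thus listed at 0 in 2 lung libraries and highest in another.

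STAT2 had 17.1 estimated counts (1.20 CPM) in lung library 2 and none in the other 8 libraries. IRF7 was detected in bone marrow library 1 alone, at 0.281 CPM.

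The nucleic acid sensors and RNA enzymes were EIF2AK2, a kinase that halts translation on double-stranded RNA, the RNA editor ADAR, the RNA helicase sensor IFIH1, the DNA sensor IFI16, and the oligoadenylate synthetases OAS1, OAS2 and OAS3 with the related OASL. All 8 were tested, 5 with a higher fitted level in bone marrow and 3 in lung, and none was called. EIF2AK2 was at 51.5, 70.5, 52.4 and 44.4 CPM in bone marrow, then 79.0, 38.3, 6.99 and 17.8 CPM in lung, with 127 CPM in the primary tumor. The bone marrow libraries were close together, while the lung libraries spread 11.3-fold around them. Its log2 fold change between sites was 0.62 ± 0.64 (edgeR adjusted p 0.766).

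ADAR was at 27.9, 38.1, 68.4 and 33.6 CPM in bone marrow, then 49.96, 19.8, 16.3 and 50.4 CPM in lung, with 33.6 CPM in the primary tumor. Its libraries overlapped, with a log2 fold change of 0.30 ± 0.50 (edgeR adjusted p 0.878). IFI16 was at 7.37, 0.181, 0.446 and 0.105 CPM in bone marrow, then 0, 15.8, 13.5 and 0.0232 CPM in lung, with 27.8 CPM in the primary tumor. It was either below 0.5 CPM or above 7 CPM in every library. IFIH1 and OAS3 ranged from 0 to 17.9 and from 0.380 to 20.6 CPM over the metastases, whereas OAS1 stayed between 0.687 and 1.75 CPM. OASL, at 0.141 to 4.73 CPM, had the largest fitted difference toward bone marrow among members with counts at both sites, 2.07 ± 1.08, which was not called (edgeR adjusted p 0.505). OAS2 did not exceed 1.25 CPM.

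Of the 13 antiviral effectors, 9 were tested, 2 with a higher fitted level in bone marrow and 7 in lung, and none was called. IFIT1, IFIT2 and IFIT3, which bind viral RNA and act together in complexes, lie side by side on chromosome 10. IFIT1 (chr10:89392546-89406486, plus strand) was at 11.1, 24.4, 33.3 and 47.0 CPM in bone marrow, then 8.92, 40.4, 42.8 and 24.8 CPM in lung, with 10.1 CPM in the primary tumor. Both sites covered the same range (log2 fold change -0.01 ± 0.60, edgeR adjusted p 0.998). IFIT2 was at 27.4, 0.244, 12.6 and 0.409 CPM in bone marrow, then 0.708, 90.2, 7.84 and 35.8 CPM in lung, with 10.6 CPM in the primary tumor. IFIT3 was at 17.1, 9.85, 15.7 and 0.482 CPM in bone marrow, then 10.1, 16.9, 2.68 and 86.4 CPM in lung, with 22.6 CPM in the primary tumor.

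The 3 neighboring genes did not follow each other from library to library. Lung library 2 held the highest IFIT2 level, lung library 4 the highest IFIT3 level and bone marrow library 4 the highest IFIT1 level, and in that last library IFIT2 and IFIT3 were below 0.5 CPM. The log2 fold changes were -1.73 ± 1.58 for IFIT2 and -1.43 ± 1.17 for IFIT3 (edgeR adjusted p 0.731 and 0.694). The spans of IFIT1, IFIT2 and IFIT3 overlap that of the gene LIPA on the opposite strand. Overlap of exons was not determined, and reads from any shared sequence cannot be assigned to a strand here. The same holds for IRF1, EIF2AK2, OAS1, OAS2, OAS3, MX1, RSAD2, CMPK2, TRIM22, PARP9, DTX3L, IFI6 and CXCL10, whose spans each overlap a gene on the opposite strand.

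CMPK2, a mitochondrial nucleotide kinase, was at 18.97 CPM in lung library 4 and 0.307 CPM in the primary tumor and had no counts in the other 7 libraries. Its edgeR p of 0.0457 (adjusted p 0.486) rested on that library. RSAD2, the antiviral enzyme viperin, which overlaps CMPK2 head to head, was at 6.93 CPM in lung library 2, at 0.150 CPM in lung library 4 and at 0.126 to 1.38 CPM in the other metastases. The exonuclease ISG20 did not exceed 0.894 CPM in a metastasis. SAMD9, a translation inhibitor, ran from 0.508 to 7.63 CPM, the ubiquitin ligase TRIM22 from 0.183 to 3.14 CPM and the GTPase GBP1 from 0.349 to 1.37 CPM. The dynamin-like GTPases MX1 and MX2 did not exceed 0.714 and 0.179 CPM, and tetherin (BST2) did not exceed 0.242 CPM. GBP2 had 0 counts in each library, which allows up to 0.255 CPM.

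Of the IFI proteins and the chemokine CXCL10, 3 had a higher fitted level in bone marrow and 3 in lung, and none of the 6 was called. IFI6, an inhibitor of cell death at the mitochondrion and of viral replication at the endoplasmic reticulum, was at 24.3, 16.6, 14.5 and 9.96 CPM in bone marrow, then 32.9, 28.0, 17.6 and 24.2 CPM in lung, with 17.1 CPM in the primary tumor. Bone marrow library 1 lay above 2 lung libraries, and the log2 fold change was -0.65 ± 0.43 (edgeR adjusted p 0.602). IFI35, a leucine zipper protein, was at 12.8, 31.5, 19.5 and 8.59 CPM in bone marrow, then 7.40, 22.5, 0 and 21.6 CPM in lung, with 14.1 CPM in the primary tumor. IFI44 was at 9.88, 13.8, 9.52 and 3.86 CPM in bone marrow, then 1.10, 16.6, 3.59 and 38.9 CPM in lung, with 7.24 CPM in the primary tumor.

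The lung libraries of IFI44 spread 35.3-fold and its bone marrow libraries 3.57-fold. IFI44L was at 1.86 to 9.25 CPM and IFI27 at 0 to 4.12 CPM over the metastases. CXCL10, which attracts activated T cells, was at 2.66 CPM in bone marrow library 1, at 0.0695 CPM in bone marrow library 3 and at 0 in the other 7 libraries.

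**Figure D4:**
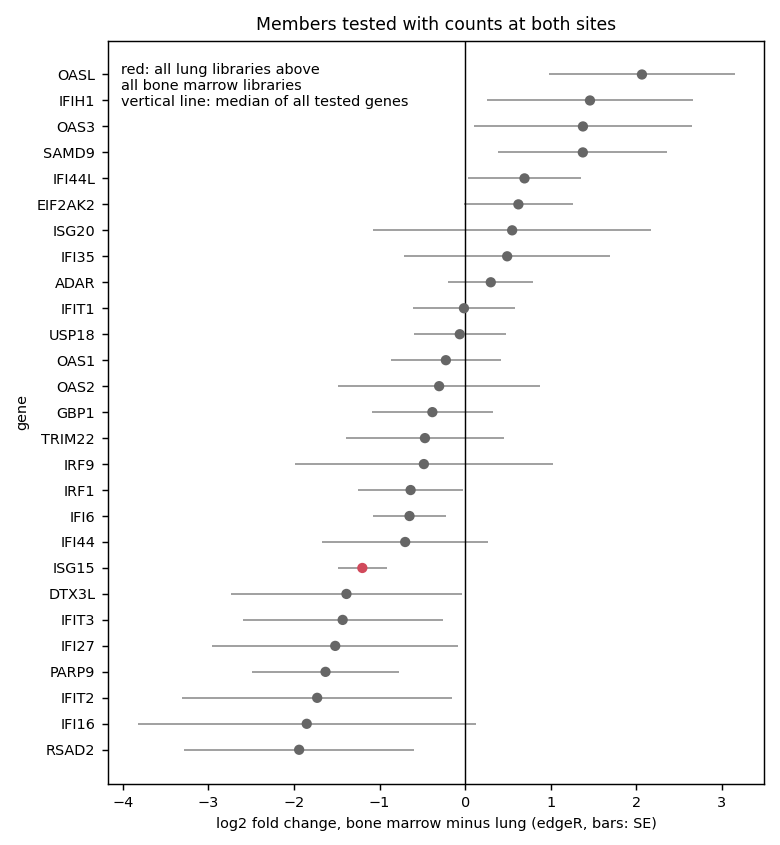
Fitted log2 fold change, bone marrow minus lung, with its standard error, for the 27 tested members that had counts at both sites; the vertical line marks the median of all tested genes, 0. ISG15, at -1.20 ± 0.29, is colored because its sites did not overlap.

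The highest levels of single members were spread over all 9 libraries. The summed level of the 35 members ran from 334 to 456 CPM in bone marrow, from 373 to 663 CPM in lung and was 448 CPM in the primary tumor, so the sites overlapped. ISG15 alone made up 17.9 to 28.6% of that sum in bone marrow, 29.9 to 45.8% in lung and 22.2% in the primary tumor. In 13 members, 1 library held over 40% of the summed CPM of the gene. In 7 tested members that were above 0 in every lung library, the lung libraries differed by 10-fold or more. The shares of all tested genes with such spreads were not computed, so nothing particular to the members can be read from these counts. Every library was the highest for at least 1 tested member, from 1 member in bone marrow libraries 3 and 4 to 6 members in lung library 4. Over all tested genes, these 3 libraries were the highest for 11.5%, 7.80% and 12.0%, and the 9 libraries for 7.80 to 15.2%.

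The metastases were then compared with the primary tumor library, which asks how far that 1 library lay from the 8 others relative to their spread. No member was called, by edgeR (0% of all tested genes), DESeq2 (0.716% of its genes) or limma voom (0.282%), and at an unadjusted edgeR p below 0.05 there were 0 members against 4.79% of all tested genes. The fitted level was higher in the metastases for 19 members and lower for 11, with a median log2 fold change of 0.35 against 0.17 for all genes. These counts include STAT2, CMPK2 and CXCL10, which passed the filter on low counts through 1 metastasis library each. With 3 members that had no counts in the primary tumor set to the floor of 3 counts in that library, the median was 0.22, and with limma voom it was -0.20.

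The primary tumor lay above all 8 metastases for 4 of the 30 tested members (10.1% of all tested genes) and below all 8 for 3 (7.59%). The 4 above were EIF2AK2, IFI16, IFI44L and ISG20. EIF2AK2 was at 127 CPM against at most 79.0 CPM, with a log2 fold change (metastases minus primary) of -1.53 ± 0.83. IFI16 was at 27.8 CPM against at most 15.8 CPM, IFI44L at 14.3 CPM against at most 9.25 CPM, and ISG20 at 2.82 CPM against at most 0.894 CPM.

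The 3 below were IRF1, SAMD9 and PARP9. IRF1 was at 6.10 CPM against at least 10.8 CPM, with a log2 fold change of 2.28 ± 1.12 and an edgeR p of 0.0725. SAMD9 was at 0.463 CPM against at least 0.508 CPM, and PARP9 at 0.418 CPM against at least 0.629 CPM, in both cases close to the lowest metastasis. Each of these 7 members had an edgeR adjusted p of 1.00.

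**Figure D5:**
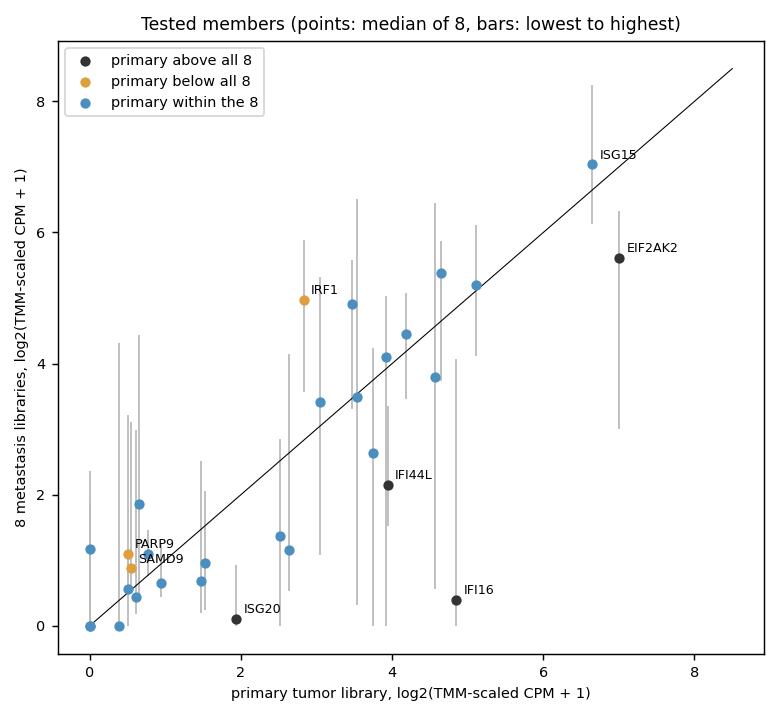
Tested members by their level in the primary tumor library (x axis) and in the 8 metastasis libraries (y axis, median with lowest to highest), both as log2(TMM-scaled CPM + 1), with the line of equal level. EIF2AK2, IFI16, IFI44L and ISG20 lie wholly below the line and IRF1, SAMD9 and PARP9 wholly above it.

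Upstream of the ISGs, 21 interferon genes were measured. Of these, 3 had no counts in any library, and 4 (IFNA2, IFNA4, IFNA6 and IFNA14) were tested and lay above the floor in all 9 libraries. Several estimated counts of IFNA4, IFNA6 and IFNA14 were not whole numbers, and sharing of reads among the IFNA genes was not examined. IFNB1 did not exceed 0.652 CPM and IFNG 0.218 CPM. IFNA14 was the highest, at 8.14, 8.53, 4.51 and 7.30 CPM in bone marrow, then 9.59, 9.08, 18.0 and 10.1 CPM in lung, with 6.20 CPM in the primary tumor. Its lung libraries lay above all bone marrow libraries, as for 3.05% of all tested genes. The log2 fold change of -0.72 ± 0.49 was not called (edgeR adjusted p 0.619, DESeq2 adjusted p 0.451).

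All 6 receptor chains were tested and none was called by edgeR. IFNAR1 was at 97.1 ± 30.6 CPM in bone marrow, against 46.2 ± 29.2 CPM in lung, IFNAR2 at 12.0 ± 6.17 and 11.1 ± 14.1 CPM, IFNGR1 at 126 ± 8.31 and 103 ± 25.8 CPM, and IFNGR2 at 28.1 ± 7.67 and 35.3 ± 18.0 CPM (SD, n = 4 each). IFNLR1, the lambda interferon receptor chain, was at 1.14 ± 1.49 and 1.36 ± 2.50 CPM. IL10RB, which serves interferon lambda and interleukin 10, was at 23.6 ± 6.45 and 33.1 ± 8.02 CPM and at 3.54 CPM in the primary tumor. DESeq2 called it higher in the metastases (adjusted p 8.15e-05), and edgeR did not (adjusted p 0.534).

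Of 11 kinases and further transcription factors, 9 were tested, 5 with a higher fitted level in bone marrow and 4 in lung. None was called by edgeR, DESeq2 or limma voom. Between the sites, 1 had an unadjusted edgeR p below 0.05, against 10.2% of all tested genes. JAK1 was the highest, at 224 ± 74.9 CPM in bone marrow, 132 ± 50.9 CPM in lung, with 393 CPM in the primary tumor. Of 15 sensors and adaptors, 11 were tested and none was called, with the kinase TBK1 the highest at 55.5 ± 25.7 CPM in bone marrow, against 41.5 ± 25.3 CPM in lung. Of 8 negative regulators, 7 were tested and none was called.

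The enzymes that attach ISG15 to proteins were counted as a list of 6 genes. Of these, 4 had a higher fitted level in bone marrow and 1 in lung, and none was called by edgeR between sites. UBA7, the activating enzyme, was listed at 0 in all 8 metastases and at 1.70 CPM in the primary tumor, the 1 library through which it passed the filter on low counts. With limma voom alone it was called lower in the metastases than in the primary tumor (log2 fold change -5.59), which rests on that library. The conjugating enzyme UBE2L6 was at 66.1 ± 18.4 CPM in bone marrow, against 57.4 ± 16.7 CPM in lung, and the ligase HERC5 at 34.1 ± 25.0 and 19.7 ± 8.31 CPM. HERC6 was at 0.601 ± 0.266 and 0.0746 ± 0.0596 CPM (edgeR adjusted p 0.456). Its bone marrow libraries were above all lung libraries, as for 2.83% of all tested genes. Its lung libraries held at most 2 counts, below the floor, and bone marrow library 3 held 3. The ligase TRIM25 was at 25.2 ± 12.0 CPM in bone marrow, against 30.5 ± 14.7 CPM in lung, and the ligase ARIH1 at 33.3 ± 7.94 CPM, against 24.7 ± 8.68 CPM.

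Among 43 further ISGs, 33 were tested, 17 with a higher fitted level in bone marrow and 16 in lung (median log2 fold change 0.01), and edgeR called none in either comparison. The membrane protein IFITM1, which blocks viral entry, was the highest at 414 ± 12.2 CPM in bone marrow, 498 ± 215 CPM in lung, with 513 CPM in the primary tumor. DESeq2 called TDRD7 higher in bone marrow (adjusted p 0.0222), where its libraries were at 0, 7.68, 0.486 and 8.54 CPM against at most 0.141 CPM in lung. DESeq2 also called PLSCR1, a phospholipid scramblase, higher in the metastases (adjusted p 0.000416), at 35.7 ± 4.01 CPM (bone marrow) and 43.6 ± 11.57 CPM (lung), against 8.48 CPM in the primary tumor. Of 12 genes of MHC class I presentation, all were tested, 4 with a higher fitted level in bone marrow and 8 in lung, and none was called by edgeR or DESeq2. At an unadjusted edgeR p below 0.05 between the sites there were 3 of the 12, against 10.2% of all tested genes.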

How the data were processed

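RNA of 9 libraries was amplified by template switching from low input, per the labels' protocols. The authors deposited unscaled estimated counts for each gene symbol. The submitters' processing notes name Trim Galore, Salmon and hg38, without versions. Also deposited were the percent of a library's reads assigned to each species, the fraction in each category of the counting and the read length (151 bases); how the authors made them, and the strand setting, are not given in the sources used here.

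Of 34934 rows, 12 vector and 92 spike-in rows, at most 0.0133% and 0.00360% of counts, stayed out of totals and tests. Counts were rounded, filtered (filterByExpr, which a gene can pass through 1 library) and TMM-scaled, and all 9 libraries entered 1 edgeR 4.0.16 quasi-likelihood fit with 3 groups (two-sided, Benjamini-Hochberg over 17042 genes, threshold 0.05, R 4.3.3), after it was tested on simulated data. Standard errors were derived from the F statistic. CPM means carry the SD over libraries. All 36 pairs of libraries differed by more than sampling noise (lowest chi-square over its degrees of freedom 78.7). Lengths and positions came from GENCODE release 29.

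Alternatives were DESeq2 1.42.0, limma 3.58.1 voom with quality weights, other scalings and filters, a replicate block, the metastases alone and single libraries left out. Members and lists were chosen with earlier results of these data known. Every member is named; values per library are given for members that did not overlap between sites or were called by any tool and for the 3 highest of each role group by mean CPM. Genes of other lists are named where called by edgeR or DESeq2, where highest of the list or where the list has at most 6 genes; other values per library were chosen after they were seen.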

Additional observations from a re-analysis of the deposited data

Results flagged for a closer look

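In 7 of 60 groups of 4 libraries, taken as the bone marrow and lung libraries of each tested member on the log2(CPM + 1) scale, 1 library lay far from the others (by Dixon's ratio of its gap to the range of the group). Chance flags about 1 in 20 groups of normally spread values, a rate that does not hold for groups with libraries at 0. STAT2, CMPK2 and CXCL10 passed the filter on low counts only through the library flagged here, so no excess over chance can be read from the 7. STAT2 was at 1.20 CPM in lung library 2 and at 0 in the other 3 lung libraries. CMPK2 was at 18.97 CPM in lung library 4 and at 0 in the other 3. PARP9 was at 8.25 CPM in lung library 1 against 1.08 to 1.27 CPM, and ISG20 at 0.698 CPM in lung library 3 against 0 to 0.0726 CPM. In bone marrow the library apart was number 1 in each of 3 cases: OAS2 at 1.25 CPM against 0.198 to 0.305 CPM, IFI16 at 7.37 CPM against 0.105 to 0.446 CPM, and CXCL10 at 2.66 CPM against 0 to 0.0695 CPM.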

How the results depend on the processing

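For all tested genes, bone marrow minus lung, 1 call became 3 when 5 CPM in 4 libraries were required, 468 with DESeq2, 6 with limma voom, and 0 without bone marrow 1 and lung 3 together, a choice made after seeing the data; it was 0 to 0 with single libraries left out. Among members, DESeq2 called 1 (ISG15) where edgeR called 0. For metastases minus primary, 0 calls became 97 with DESeq2 and 48 with limma voom. Replicate numbers showed no pairing of the libraries (correlation of deviations -0.06 to 0.04 over 4 numbers), though a weak pairing could be missed at this spread. With the replicate block 0 genes and 0 members were called, and ISG15 had a log2 fold change of -1.18 (edgeR adjusted p 0.610).

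The members' median, bone marrow minus lung (-0.43), was -0.078 with the replicate block, -1.05 without bone marrow 1 and lung 3 together, and -0.79 (without bone marrow 1) to -0.086 (without lung 4) with single libraries left out. For metastases minus primary it was -0.20 with limma voom. ISG15 kept its sign in every alternative. Of 60 gene and comparison pairs, 45 kept their sign throughout, and 40 of 902 values had the opposite sign. Bone marrow minus lung, the sign turned with limma voom for IRF9 (1.57), OAS2 (0.065), IFIT1 (0.32), USP18 (0.076) and IFI44 (0.013), with the replicate block for IRF9 (1.45), IFIT1 (0.019) and IFI44 (0.35), with no filter for IFIT1 (0.0035), and without both libraries for IFIT1 (0.49) and USP18 (0.017). Metastases minus primary, it turned with limma voom for OAS2 (-0.22), IFIT2 (-1.16), RSAD2 (-0.18), DTX3L (-1.21) and IFI35 (-0.64), and for DTX3L with library size alone (-0.014) and without both libraries (-0.88).

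With single libraries left out, the log2 fold change, bone marrow minus lung, ran from -0.90 to 0.59 for IRF9, -1.22 to 0.023 for OAS2, -0.038 to 0.55 for ADAR, -0.35 to 0.28 for IFIT1, -1.81 to 0.12 for IFIT3, -3.12 to 0.53 for RSAD2, -1.29 to 3.05 for ISG20, -1.25 to 0.32 for TRIM22, -0.27 to 0.24 for USP18 and -1.08 to 0.38 for IFI44. Metastases minus primary, it ran from -0.33 to 1.10 for RSAD2, -1.12 to 0.24 for DTX3L and -0.094 to 0.28 for IFI35. The cause was not tested. Levels below about 0.2 CPM are at most 3 counts, and no direction can be read from them.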
